A study of Mus musculus with 2 samples.

Results

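10 genes of the NF-kappaB system were examined in MIN6 cells, a mouse insulinoma line that secretes insulin and is widely used as a beta cell model. The genes were chosen by symbol: the subunit genes Nfkb1, Nfkb2, Rela and Relb, the inhibitor genes Nfkbia, Nfkbib and Nfkbie, the kinase genes Ikbkb and Ikbkg, and Tnfaip3, which encodes the ubiquitin-editing inhibitor A20. All 10 occurred once in the deposited table of 21542 genes. RNA sequencing had been done on 1 library of cells given a control vector and 1 library of cells given a vector that expresses GR, the glucocorticoid receptor encoded by Nr3c1. Both cultures carried the C57BL/6 strain label, were kept in 25 mM glucose with 15% serum, and received 4 ug of plasmid per dish with Lipofectamine 2000. MIN6 is a single tumour line, whose cells carry a viral T antigen gene under an insulin promoter. The sources used here do not say what share of cells took up the vector, when cells were harvested, or whether a glucocorticoid was added.

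NF-kappaB is a family of dimeric transcription factors that sit in the cytoplasm bound to IkB proteins. Signals from cytokine and pattern recognition receptors activate the IkB kinase (IKK), which marks IkB for ubiquitination and destruction, and the freed dimers enter the nucleus. In beta cells interleukin 1 is a well-known trigger of this pathway. Ligand-bound GR is known to oppose NF-kappaB at inflammatory genes, and Nfkbia and Tnfaip3 are among the inhibitors that glucocorticoids can induce in some cell types. The comparison therefore asks how the transcripts of the pathway stood in cells with more GR.

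Several of these genes are themselves regulated by NF-kappaB, so their promoters are shown with the matches to the NF-kappaB consensus, a motif of 10 bases searched on both strands, with overlapping matches joined. RefSeq promoter sequences (GRCm38.p6) reached from 250 bases before to 50 bases after the start site and were matched by symbol for 7 of the 10 genes, all but Nfkb1, Relb and Ikbkb. The entry nearest to the 5' end of the deposited gene was used. The lines give the 150 bases just before the start site, 5' to 3' on the gene's strand, with consensus matches in capitals. They are chr12:55492648-55492797 (minus strand) for Nfkbia, chr19:46304587-46304736 (plus) for Nfkb2, chr17:45555550-45555699 (plus) for Nfkbie and chr10:19015411-19015560 (minus) for Tnfaip3. Rela, chr19:5637391-5637540 (plus), is shown as a gene without a match.
Nfkbia: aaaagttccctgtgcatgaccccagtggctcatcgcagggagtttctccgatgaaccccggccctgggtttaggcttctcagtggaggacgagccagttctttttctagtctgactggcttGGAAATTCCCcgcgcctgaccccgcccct
Nfkb2: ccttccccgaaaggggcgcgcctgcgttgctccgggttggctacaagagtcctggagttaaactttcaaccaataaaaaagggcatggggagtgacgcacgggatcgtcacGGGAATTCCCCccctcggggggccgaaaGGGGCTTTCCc
Nfkbie: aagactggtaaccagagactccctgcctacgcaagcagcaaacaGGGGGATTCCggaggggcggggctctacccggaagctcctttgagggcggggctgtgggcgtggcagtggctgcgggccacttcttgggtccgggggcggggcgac
Tnfaip3: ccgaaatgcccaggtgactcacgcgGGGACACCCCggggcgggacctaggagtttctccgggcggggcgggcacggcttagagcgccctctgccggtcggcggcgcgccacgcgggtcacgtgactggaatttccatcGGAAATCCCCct
Rela: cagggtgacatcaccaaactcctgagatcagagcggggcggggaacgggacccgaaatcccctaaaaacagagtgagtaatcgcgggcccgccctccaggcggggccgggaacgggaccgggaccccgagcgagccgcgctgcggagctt

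Matches lay in 4 of the 7 promoters. Nfkbia had 1 at positions -29 to -20 from the start site, Nfkbie had 1 at -106 to -97, Nfkb2 had 2 at -39 to -29 and -11 to -2, and Tnfaip3 had 2 at -125 to -116 and -12 to -3. Rela, Nfkbib and Ikbkg had 0, and of the 2 RefSeq entries of Tnfaip3 only the one shown held a match. Of all 32851 promoters of the same length 8.46% held a match, and of the 12974 measured genes with a promoter entry 9.88% did. The glucocorticoid half-site AGAACA, searched on both strands, had 0 matches in the 7 windows and lay in 19.0% of all promoters.

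Reads over genes summed to 18537326 (control) and 18525668 (GR), so depth was matched. Nr3c1, the gene on the vector, had 2645 control reads and 5202 GR-vector reads, a fold of 1.97 (1.88 to 2.07), and gene-level reads do not tell vector from endogenous transcripts. Each group is 1 library without replicates, so the differences below lack any replicate check. Folds are scaled by library size, their intervals are exact 95% intervals that cover counting error only, and reads without molecular identifiers are not independent molecules. An exact two-sided binomial test of each gene's reads, adjusted by Benjamini-Hochberg over all 21542 genes, is called the library test and compares these 2 libraries, not the conditions. In bulk RNA, fewer cells of a type and less RNA per cell cannot be told apart.

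The libraries were those of beta cell-like cells, with few reads of immune cell marker genes other than C1qa. All 8 beta cell markers were measured, from 8338 and 8140 reads for Nkx6-1 to 407986 and 373033 reads for Ins2 (insulin 2). The library test called 4 of the 8 lower with the GR vector, with folds of 0.917 for Ins2, 0.956 for Ins1, 0.968 for Iapp and 0.975 for Chga, and 0 higher, where it called 1.14% of all genes lower and 1.58% higher. Of the other 4, Pdx1 had a fold of 1.04 (1.01 to 1.07), Slc2a2 1.02 (1.00 to 1.04), Mafa 1.02 (0.999 to 1.04) and Nkx6-1 0.979, with an interval that held 1. The more reads a gene has, the smaller the fold that the library test can call. Of 8 immune markers 4 were in the table, and their summed reads were 216 in each library, most of them from C1qa (186 and 192 reads). The pan-leukocyte gene Ptprc had 2 reads and 1 read. Of 6 fibroblast and endothelial markers 4 were in the table, with 78 and 87 reads in sum, of which Col1a1 had 55 and 68 and Thy1 12 and 13. These markers' part in the values below was not tested.

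Among the subunit genes, the 4 measured differences were small and all on the lower side with the GR vector. Rela encodes p65, the subunit with a strong activation domain (ENSMUSG00000024927, chromosome 19, 5637483 to 5648130, plus strand). It had 1539 control reads and 1443 GR-vector reads, a fold of 0.940 (0.875 to 1.01). Nfkb1 encodes p105, which is processed to the DNA-binding partner p50 (chromosome 3, 135584655 to 135691547, minus strand). Its 1592 and 1530 reads gave a fold of 0.964 (0.898 to 1.03). For both genes the interval held 1, and both values differed between the libraries by under 10 percent. With the trend over transcript GC content removed, the fold was 0.980 for Rela and 0.943 for Nfkb1.

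The subunit genes of the non-canonical arm had fewer reads than Rela and Nfkb1. Nfkb2 encodes p100, the precursor of p52 (chromosome 19, 46304737 to 46312090, plus strand), and had 513 and 497 reads, a fold of 0.972 (0.857 to 1.10). Its value turned to the other side of 1 when the trend over transcript GC content was removed, with a log2 fold of -0.04 before and 0.02 after. Relb encodes the partner of p52 (chromosome 7, 19606217 to 19629438, minus strand). It had 363 and 322 reads, a fold of 0.890 (0.763 to 1.04), the lowest value of the 4 subunit genes. With the GC trend removed the fold of Relb was 0.920. Rel, the gene of the remaining subunit c-Rel, had 423 and 426 reads, a fold of 1.01 (0.881 to 1.16). None of these intervals excluded 1.

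Among the inhibitor genes Nfkbia stood higher in the GR library, while Nfkbib and Nfkbie were nearly level. Nfkbia encodes IkB-alpha, the inhibitor that NF-kappaB itself resynthesises to end its own activity (ENSMUSG00000021025, chromosome 12, 55489410 to 55492647, minus strand). It had 240 control reads and 306 GR-vector reads, a fold of 1.28 (1.08 to 1.52). Its unadjusted p in the library test was 0.00469 by the exact binomial test. Its Benjamini-Hochberg adjusted p was 0.109, so it did not pass. It was the only one of the 10 genes whose counting interval left out 1. The authors' deposited table gives it a log2 fold change of 0.35 with an adjusted p of 1 and, before adjustment, 0.421.

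Nfkbib encodes IkB-beta, which is not rapidly resynthesised (chromosome 7, 28758251 to 28767512, minus strand). Its 406 and 408 reads gave a fold of 1.01 (0.876 to 1.16). Nfkbie encodes IkB-epsilon, a slower feedback inhibitor (chromosome 17, 45555703 to 45563169, plus strand). Its 118 and 113 reads gave a fold of 0.960 (0.735 to 1.25), an interval too wide to show a change of the size seen for Nfkbib or Rela.

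The kinase genes and Tnfaip3 gave no difference beyond counting error. Ikbkb encodes IKK-beta, the catalytic subunit of the canonical arm (chromosome 8, 22659212 to 22706589, minus strand), and had 424 and 432 reads, a fold of 1.02 (0.892 to 1.17). Ikbkg encodes NEMO, the regulatory subunit (chromosome X, 74393290 to 74453854, plus strand), and had 1015 and 963 reads, a fold of 0.952 (0.870 to 1.04). The other catalytic subunit gene, Chuk (IKK-alpha), had 2227 and 2189 reads, a fold of 0.986 (0.929 to 1.05). Tnfaip3 (chromosome 10, 19000910 to 19015657, minus strand) had only 36 and 31 reads. Its fold of 0.864 came with an interval of 0.517 to 1.44, so even a change as large as that of Nfkbia was not detectable at this depth.

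**Figure D1:**
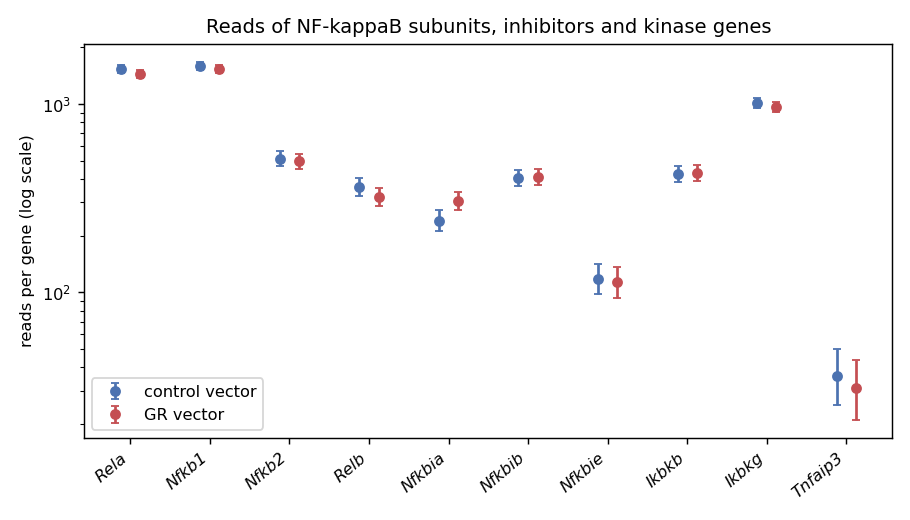
Reads per gene (log scale) in the control library (blue) and the GR library (red) for the 10 genes, with bars for the exact 95% Poisson interval of the count. Nfkb1, Rela and Ikbkg lie near or above 1000 reads in both libraries and Tnfaip3 lowest at 36 and 31; the points of Nfkbia, 240 and 306, lie farthest apart relative to their bars.

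**Figure D2:**
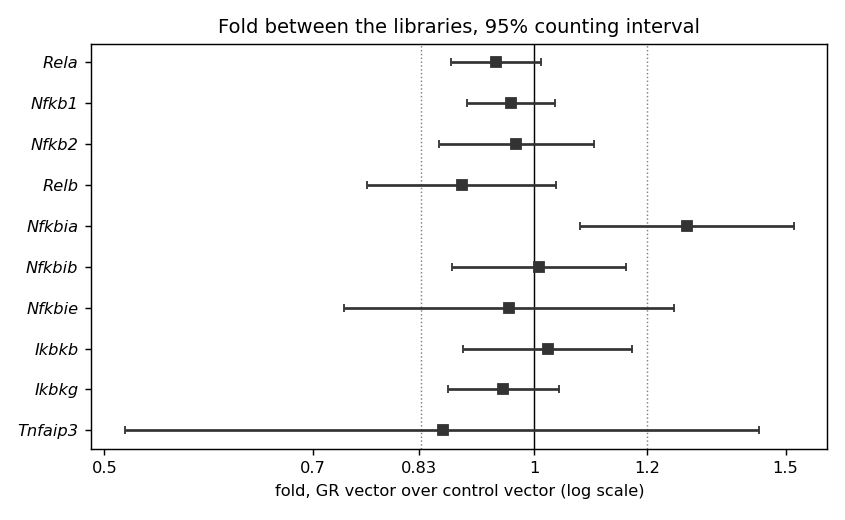
Fold of the GR library over the control library (log scale, squares) with exact 95% counting intervals (bars), a solid line at 1 and dotted lines at a fold of 1.2 in either direction. The interval of Nfkbia, 1.08 to 1.52, is the only one that does not reach 1.

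Set against all genes, the 10 genes were close to the bulk. By the authors' deposited table, none of the 10 passed an adjusted p under 0.05, where 0.0186% of all genes did. The lowest unadjusted p among the 10 was the 0.421 of Nfkbia. Nr3c1, with a fold of 1.97, missed that adjusted threshold too. A preset dispersion of 0.04 reproduces those p-values, so a miss says little about folds as small as those of the 10. The library test called 0 of the 10, and of all genes it called 2.72%, 1.58% higher and 1.14% lower. At an unadjusted p under 0.05 the same exact test had 1 of the 10, Nfkbia, and 13.1% of all genes. Of the 9 with a mean of 100 reads or more, 1 had a fold of 1.2 or more, again Nfkbia, and of all 11070 genes so filtered 5.04% did, 2.68% higher and 2.36% lower. Among the 1720 genes with a mean of 200 to 400 reads, the range that holds Nfkbia, 10.5% passed that fold, and 1.51% had a fold at least as high as Nfkbia. The median log2 fold of the 10 was -0.06, beside 0.0042 over the 18272 genes with a fold, with 3 of the 10 above 0 and 7 below. Over all genes with a fold 51.1% lay above 0.

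**Figure D3:**
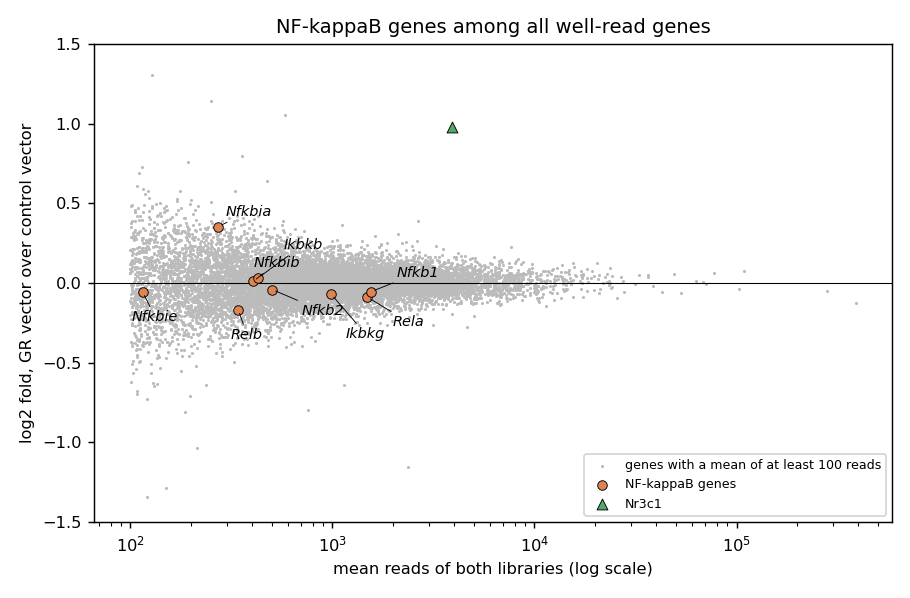
Log2 fold of the GR library over the control library against the mean reads of both libraries (log scale) for genes averaging 100 reads or more (grey), 9 NF-kappaB genes (orange) and Nr3c1 (green triangle). Nfkbia, at 0.35, lies at the upper edge of the genes of its read depth and the other 8 lie inside the cloud; 4 genes lie beyond the vertical axis, and Tnfaip3 is not drawn for its low reads.

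The counting intervals give the differences that counting error alone allows if each read is an independent molecule. Reads without molecular identifiers are not, so the true intervals may be wider. For Nfkb1, Nfkb2, Rela, Nfkbib, Ikbkb and Ikbkg the counting intervals lay between 0.857 and 1.17. Larger differences between these libraries in either direction fall outside that counting error. For Relb, Nfkbia, Nfkbie and Tnfaip3 they reached beyond these bounds. A missed threshold does not show that transcripts were equal, since the spread between cultures was not measured. The authors' deposited enrichment report lists an NF-kappa B signalling set of 102 genes with an enrichment score of 0.635 and a normalized score of 1.02. It stood at place 56 of the 307 sets of that deposited report, with a nominal p listed as 0, an FDR q of 0.893 and a family-wise p of 1. That report is the one for the GR library, and all 307 sets in it had a positive score. Sets with a negative score may have been left out, so place 56 is a standing among the listed sets only. The nominal p was 0 in 159 sets and 0.5 in the other 148, so that p does not separate this set from many others.

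Per length, Rela was the most abundant of the 10 transcripts and Tnfaip3 the least. Levels are TPM, computed from reads per base of the deposited gene length and scaled over all genes. Rela stood at 102.5 in the control library (97.4 to 107.7) and 96.6 in the GR library, above 91.7% of the genes in the control library. Nfkbib (33.8 and 34.2), Nfkb2 (28.2 and 27.5), Nfkbia (27.0 and 34.6), Nfkb1 (23.9 and 23.1) and Ikbkg (22.6 and 21.6) followed. In the control library each of these overlapped its neighbour in the order within counting error. In the GR library Nfkbia moved from 4th to 2nd place, where its interval overlapped that of Nfkbib.

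Relb (16.9 and 15.1 TPM), Nfkbie (7.01 and 6.75), Ikbkb (4.02 and 4.12) and Tnfaip3 (0.901 and 0.780) made up the lower end, and each lay apart from its neighbours in both libraries with the deposited length. The deposited lengths of Ikbkb, 19078 bases, and Nfkb1, 12061 bases, cover the exons of all annotated transcripts, while their principal transcripts in GENCODE M21 have 3580 and 4117 bases. With principal transcript lengths Nfkb1 came second after Rela, at 49.8 in the control library against 73.0, and Ikbkb reached 15.3, above Nfkbie at 6.24. Relb then left the lower end, at 21.2 in the control library, where its interval overlapped those of Nfkbib and Nfkb2. Rela stayed first and Tnfaip3 last under both lengths and in both libraries. The principal-length setting was chosen after the data were seen.

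**Figure D4:**
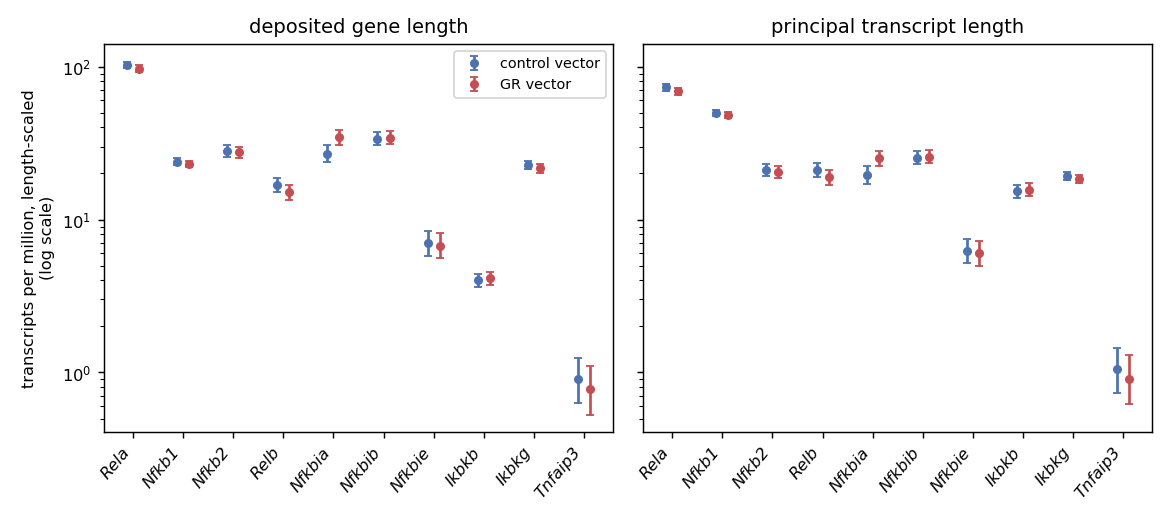
Length-scaled levels in TPM (log scale) in the control library (blue) and the GR library (red), with 95% counting intervals, using the deposited gene length (left) or the principal transcript length (right). Rela is highest and Tnfaip3 lowest in both panels, while Nfkb1 and Ikbkb move up from 23.9 to 49.8 and from 4.02 to 15.3 in the control library with the shorter length.

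The 10 genes lie on 8 chromosomes, with Rela and Nfkb2 on chromosome 19 and Relb and Nfkbib on chromosome 7. All are protein coding, and the principal transcripts have 6 exons (Nfkbia and Nfkbie) to 25 exons (Nfkb1). Reads can be shared where genes overlap, and the sources used here do not give strand handling. Of the annotated exon bases 18.1% of Nfkb2 lie under Psd and a second gene on the opposite strand, 16.4% of Nfkbib under Sirt2 and Ccer2, and 5.15% of Ikbkg under G6pdx. These shares refer to the GENCODE M21 gene models. The deposited Nfkb2 gene ends at 46312090, before the end of its M21 model at 46312385, and the deposited Psd begins at 46312087, so the 18.1% is not the overlap of the counted genes. For Nfkbib and Ikbkg, whose deposited models equal those of M21, reads in the overlap could come from either strand. Psd had 2203 and 2136 reads, Sirt2 1050 and 1119, and G6pdx 491 and 446. For the other 7, at most 2.08% of the stretches of 31 bases occur in another annotated gene, and the figure for Nfkbia is 0.190%.

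Around these genes, 8 lists of the pathway held 132 symbols, of which 111 were measured. The library test called 4 of the 111 higher and 1 lower with the GR vector, 4.50% in all, beside 2.72% of all genes (1.58% higher and 1.14% lower). These shares are not matched for depth, on which the calls depend. A mean of at least 100 reads was met by 79 of the 111 and by 11070 of all 21542 genes. A fold of 1.2 or more was met by 5 of the 79 with a mean of at least 100 reads, 6.33%, beside the 5.04% of all genes. No list gene passed the authors' adjusted p, which Nr3c1 did not pass either. As lists chosen with earlier results known, they are described by counts and medians alone. Their counts above and below 0 stand beside 51.1% above 0 over all genes with a fold.

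Other genes of the Rel, IkB and IKK families (12 measured) had a median log2 fold of -0.0032, with 6 above 0 and 6 below and 0 past the library test. The atypical IkB gene Nfkbiz, whose nuclear product modulates NF-kappaB targets, had 455 and 366 reads, a fold of 0.807 (0.701 to 0.928) and an adjusted library p of 0.0734. The NF-kappaB repressing factor gene Nkrf had 167 and 213 reads, a fold of 1.28 (1.04 to 1.58), as large as that of Nfkbia, with an adjusted library p of 0.235. Nkap, an NF-kappaB activating protein gene named after its value was seen, had 454 and 554 reads. Its fold was 1.22 (1.08 to 1.39), with an adjusted library p of 0.0526. The Ras-like IkB-binding gene Nkiras2 had 1287 and 1254 reads. So within this family folds of 1.2 or more occurred in both directions, and none passed the threshold in the test over all 21542 genes. Read filters leave fewer genes to adjust for, so this holds for the unfiltered test only. By the number of genes called with each filter, Nkap comes under the threshold with a mean of at least 10 reads. With at least 50 reads Nkap and Nfkbiz both do.

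Of 16 measured receptor genes 8 had a mean of at least 50 reads, and of 6 measured ligand genes 1 did. Il1r1, the receptor for interleukin 1, had 17594 and 18646 reads, a fold of 1.06 (1.04 to 1.09), and was the 1 receptor of 16 measured past the library test, on the higher side (adjusted p = 2.65e-06, exact binomial). Of all genes 1.58% were called higher, a share not matched for its depth. Per length Il1r1 stood at 500.0 and 533.0 TPM, above the levels of Rela. Tnfrsf1a, the main receptor for tumour necrosis factor, had 1415 and 1437 reads. Ltbr, the lymphotoxin receptor that feeds the non-canonical arm, had 618 and 579, and Il18r1 167 and 193. The receptor median was 0.06 over 14 genes with a fold. Of 12 ligand genes 6 were in the table; Tnfsf12 had 156 and 172 reads and Il1b 18 and 14, and the median over 4 genes with a fold was -0.34, with 1 above 0 and 3 below.

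Adaptors, kinases and ubiquitin ligases that act between receptors and IKK (24 measured) had a median log2 fold of 0.07, with 16 above 0 and 8 below. Tab2, a ubiquitin-binding adaptor of the kinase TAK1, was higher in the library test (3704 and 3974 reads, fold 1.08, adjusted p = 0.0497, exact binomial). Rbck1, which encodes HOIL-1 of the linear ubiquitin ligase, was lower (1648 and 1454 reads, fold 0.885, adjusted p = 0.0341, exact binomial). Map3k7, the gene of TAK1 itself, had 2592 and 2583 reads, and Malt1, a protease of the pathway, 175 and 214, a fold of 1.23 (1.00 to 1.51). Deubiquitinases and other inhibitors (12 measured) had a median of 0.05, with 9 above 0 and 2 below and 0 past the library test. Of all genes with a fold 51.1% were above 0, and no test of the list was made. In this list the deubiquitinase gene Cyld had 1267 and 1410 reads, a fold of 1.12 (1.03 to 1.21). Tax1bp1, an A20 partner, had 3829 and 3961, Tollip 2930 and 2928, and Nlrx1 72 and 71.

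The ligase that ubiquitinates IkB and the cofactors of RelA were near level. Of 9 measured ligase and E2 genes (median log2 fold 0.0052, or -0.04 with the GC trend removed) the library test called 2 higher, Skp1a (2197 and 2418 reads, fold 1.10) and Ube2d3 (7360 and 7862, fold 1.07), and 0 lower. Of all genes it called 1.58% higher and 1.14% lower. That share is not matched for depth, and at many reads the test calls small folds. Fbxw11, one of the IkB-recognising F-box genes, had 2881 and 2883 reads, and the E2 gene Cdc34 1341 and 1206, a fold of 0.902. Over 14 nuclear cofactors the median was 0.0042, with 7 above 0 and 7 below and 0 past the library test. The acetyltransferase gene Ep300 had 3899 and 3976 reads, Kat2b 1250 and 1373, and the deacetylase gene Hdac1 3505 and 3284.

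Target genes of NF-kappaB were mostly low in both libraries. Of 26 listed, 18 were in the table, and 7 had a mean of at least 100 reads. Their median log2 fold was -0.05 over 16 genes with a fold, with 7 above 0 and 9 below, and 0 passed the library test. Csf1, a macrophage growth factor, had 1955 and 2044 reads, a fold of 1.05 (0.985 to 1.12), and the survival gene Bcl2l1 1652 and 1565, with a fold interval of 0.886 to 1.02. Psmb9, an immunoproteasome subunit, had 150 and 124 reads, a fold of 0.829 (0.648 to 1.06), and the stress gene Gadd45b 71 and 84. Of 17 target genes with a promoter entry 6 held a consensus match, 35.3%, beside 57.1% of the 7 promoters described above. Over all measured genes averaging 100 reads or more, the 867 with a match had a median log2 fold of 0.0011 and the 7720 without one 0.0040. A fold of 1.2 or more on the higher side was met by 1.73% and 2.47% of them, and on the lower side by 2.65% and 2.07%.

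**Figure D5:**
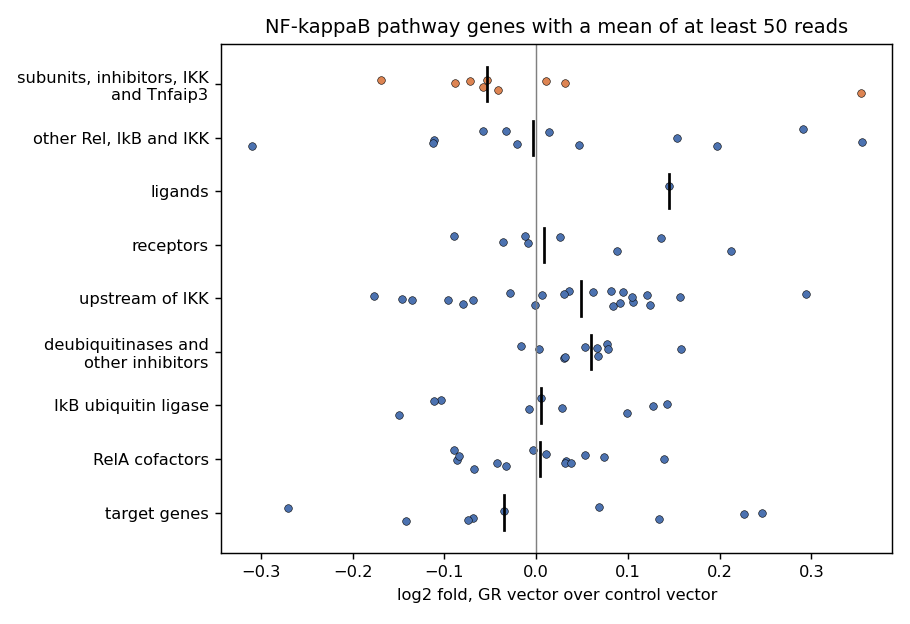
Log2 fold of the GR library over the control library for genes averaging 50 reads or more, one point per gene, in the 10 genes (orange) and the 8 pathway lists (blue), with a black bar at the median of the points drawn. Points of most lists lie on both sides of 0, and Nfkbia, at 0.35, is the highest orange point. The vertical spread within a list carries no value.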

How the data were processed

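The 2 libraries were compared, each the only one of its group, so p-values measure no spread between cultures. Per the file headers, the authors deposited 1 signal column per library (scaled read counts per gene). Every value was a whole number of reads times 1 step per library (100% within 0.01 reads), and the reads were recovered by dividing by that step. The authors also deposited a log2 fold change with a p-value and adjusted p-value per gene, and an enrichment report with scores. DESeq2 1.10.1 is named in the submitters' processing notes. The aligner, counter, strand handling and build were not given in the sources used. The exact test in edgeR 4.0.16, run on those reads with a preset dispersion of 0.04, differed from the deposited p-values by at most 4.5e-08, so the spread behind them was not measured.

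Folds used TMM-scaled library sizes and exact Clopper-Pearson intervals (SciPy 1.17.1). A count of 0 allows up to 3 reads and was set to 3 in medians; genes with 3 reads or fewer in both libraries got no fold. The tests were tried on simulated counts with counting error alone and with changes larger than that of any of the 10 genes. That trial therefore does not cover spread between cultures or changes as small as theirs. Of the deposited genes 21516 occur in GENCODE M21 (GRCm38), 96.8% at the same position. Besides the 10 genes and Nr3c1, each list's genes past the library test, its 2 most read, and its highest and lowest fold with a mean of at least 50 reads were named. The members and lists were chosen with earlier results of these data known. Scaling, count filters, dispersion, p threshold, GC trend and gene length were varied.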

Additional observations from a re-analysis of the deposited data

How the results depend on the processing

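The count of 4 genes past the authors' adjusted p became 16 with edgeR's exact test at a dispersion of 0.01 and 0 at 0.16, where 65 genes had an unadjusted p under 0.05 and the library test called 585. None of the 10 NF-kappaB genes passed under any of these. The library test's count ran from 538 to 679 over the other scalings and read filters, and 0 of the 10 genes passed in each. The adjusted p of Nfkbia in that exact binomial test moved with the setting. It was 0.0681 with a mean of at least 50 reads, 0.0793 with at least 10, and 0.125 with median-of-ratios factors. All 40 recomputed log2 folds of the 10 genes (total reads, median-of-ratios factors, GC trend removed, the deposited values) stayed within their counting intervals, with a largest shift of 0.06, and 39 kept their sign; the exception was Nfkb2 with the GC trend removed. Their median was -0.02 with that trend removed, and Nfkbia was 0.38. No paired analysis was possible because each group has 1 library, and for the same reason no library could be left out. Read depth limits Tnfaip3, Nfkbie and Nfkbia most.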

Other observations

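A few sparsely read genes of the pathway had ratios farther from 1 than the well-read ones, in both directions. Irak4, a kinase recruited by interleukin 1 and Toll-like receptors, had 32 control reads and 59 GR-vector reads, a fold of 1.85 (95% counting interval 1.18 to 2.94). Its adjusted p in the library test, an exact binomial test, was 0.107. Tnfrsf11a, which encodes the receptor RANK, had 38 and 57 reads, with a fold interval of 0.981 to 2.33. Ube2v1, the partner of the E2 enzyme Ube2n, had 17 and 28 reads, a fold of 1.65 (0.873 to 3.22). Other sparsely read genes of the pathway were lower with the GR vector. The ligand gene Il33 had 6 and 1 reads, with a fold interval of 0.00363 to 1.38. The target gene Cxcl10 had 28 and 20 reads, a fold of 0.716 (0.383 to 1.32). All of these genes were singled out after their values were seen, and none passed the test.

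Of the 5 Toll-like receptor genes in the table, none had a mean of 100 reads. Tlr4, the receptor for lipopolysaccharide, had 91 and 90 reads, Tlr5 32 and 43, and Tlr3 6 and 12. Control reads were 2 for Tlr1 and 3 for Tlr2, and both had 0 with the GR vector, where a count of 0 allows up to 3 reads.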
